A study of Homo sapiens and Canis lupus familiaris with 27 samples.

Results

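The genes described here are the chaperones and partner proteins that the endoplasmic reticulum (ER) makes when unfolded proteins collect in it. The list holds 10 genes: HSPA5, HSP90B1, PDIA4, DNAJB9, DNAJC3, SDF2L1, HERPUD1, CRELD2, MANF and XBP1. They were taken by symbol from the gene count tables of 3 prostate carcinoma cell lines, which together list 25300 names. All 10 were listed and passed the filter on low counts in the human lines PC-3 and LNCaP. In the canine line CT1258, 8 were listed and all 8 passed, and HSP90B1 and XBP1 were not listed under these names.

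Secreted and membrane proteins fold in the ER, where HSPA5 (BiP) binds them while they are unfolded. HSPA5 also binds the stress sensors ATF6, IRE1 (gene ERN1) and PERK (gene EIF2AK3), and it leaves them when unfolded proteins compete for it. ATF6 is then cut to a transcription factor in the Golgi, IRE1 splices the mRNA of XBP1 so that an active factor is made, and PERK slows translation and raises ATF4. ATF6 and spliced XBP1 switch on the chaperones described here, and ATF4 mainly switches on amino acid and stress genes. Gene counts do not tell spliced from unspliced XBP1 mRNA, so the values of XBP1 below are the total of both. Fewer cells and less RNA per cell cannot be told apart in such bulk samples.

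The cells had been exposed to PDA-66, an indolylmaleimide that disturbs microtubules, and the transcriptome was compared with that of solvent controls. PC-3 comes from a bone metastasis and LNCaP from a lymph node metastasis of human prostate carcinoma, and CT1258 is a canine prostate carcinoma line. Each line had a PDA-66 12 h and a PDA-66 24 h group at 15 µM, with 3 samples each, and a DMSO group at 0.15%, labelled 24 h, with 3 samples. The study left the first PC-3 control out as an outlier, so PC-3 had 2 controls here, and 26 samples had counts. Each line had its own culture medium. Both exposure times were set against the same controls, so the 12 h and 24 h comparisons of a line are not independent. No control was labelled 12 h. At 12 h, and between 24 h and 12 h, PDA-66 exposure and time in culture therefore cannot be told apart.

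PC-3 samples had totals of 14650839 to 18091755 counts, LNCaP samples 11923105 to 14741883 and CT1258 samples 7203534 to 20976950. Any of the 10 genes had at least 171 counts in a PC-3 sample, 160 in an LNCaP sample and 206 in a CT1258 sample. At these counts the counting error (a coefficient of variation of 0.0765, 0.0791 and 0.0697) was below the biological coefficient of variation of each line (0.0971, 0.240 and 0.1001), though close to it in PC-3 and CT1258. Values below are in CPM, read counts divided by the library total after TMM scaling and brought to a common scale. Some libraries stood apart. The 2 PC-3 controls differed more from each other (leading log2 distance 1.35) than PDA-66 samples of PC-3 within a group did (0.963 to 1.06 on average). Replicate 2 of LNCaP at 12 h lay farther from its group (2.19) than any other LNCaP sample did (0.877 to 1.58). The CT1258 controls held on average 2.64 times the total counts of the CT1258 PDA-66 samples. The luminal gene KLK2 was at 255 to 389 CPM in the LNCaP controls. In the PC-3 controls, KLK2 and KLK3 were at 0, while the epithelial keratin KRT18 was at 339 to 361 CPM. In CT1258, TMPRSS2 and, in the controls, EPCAM were at 0, KLK2 was at 3.33 to 10.8 CPM in the controls, and KRT8, KRT18, CDH1 and KLK3 were not listed under those names, so these markers could not check its prostate epithelial label.

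Promoters of these genes are known for short elements through which ATF6 and XBP1 act, so the human sequences are shown before the expression values. They are RefSeq promoters of build GRCh38.p14, from 250 bases before to 49 after the transcription start counted as 0, and all 10 genes matched. The ER stress response element (ERSE) was searched on both strands as CCAAT, then 9 bases of any kind, then CCACG, and a match was present in 27 of 35116 promoters (0.0769%). The related ERSE-II was searched as ATTGG, then 1 base of any kind, then CCACG, and was present in 19 (0.0541%). ERSE matches lay in HSPA5, HSP90B1, XBP1 and CRELD2, and ERSE-II matches in HERPUD1 and SDF2L1, 6 of the 10 genes against 44 of all 27305 genes (0.161%). The upstream bases of the best known pair are given whole, with the element in capitals. HSPA5 (chr9:125241344-125241593, minus strand, the 250 bases before the start) has its ERSE at -66 to -48, and HERPUD1 (chr16:56931892-56932141, plus strand) has its ERSE-II at -117 to -107.
HSPA5: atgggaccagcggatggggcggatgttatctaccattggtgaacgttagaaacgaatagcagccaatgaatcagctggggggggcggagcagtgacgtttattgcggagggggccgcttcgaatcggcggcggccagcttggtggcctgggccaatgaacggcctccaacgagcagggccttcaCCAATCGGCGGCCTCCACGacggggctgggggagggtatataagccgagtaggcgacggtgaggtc
HERPUD1: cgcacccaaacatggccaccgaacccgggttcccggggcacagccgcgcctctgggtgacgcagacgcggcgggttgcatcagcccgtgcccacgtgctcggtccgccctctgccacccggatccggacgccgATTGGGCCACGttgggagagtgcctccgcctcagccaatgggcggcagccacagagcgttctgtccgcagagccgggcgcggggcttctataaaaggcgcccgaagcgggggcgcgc

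For the other genes with a match, only the stretch around it is shown, again with the element in capitals. HSP90B1 (chr12:103930206-103930349, plus strand) holds a pair of ERSE matches, in opposite directions. XBP1 (chr22:28800593-28800631, minus strand) and CRELD2 (chr22:49918544-49918582, plus strand) hold 1 each, and that of CRELD2 reads on the opposite strand. The ERSE-II of SDF2L1 (chr22:21642104-21642134, plus strand) also reads on the opposite strand.
HSP90B1: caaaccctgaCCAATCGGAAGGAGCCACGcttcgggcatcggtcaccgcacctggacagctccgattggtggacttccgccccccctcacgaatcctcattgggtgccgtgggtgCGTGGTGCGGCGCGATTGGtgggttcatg
XBP1: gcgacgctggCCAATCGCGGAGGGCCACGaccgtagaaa
CRELD2: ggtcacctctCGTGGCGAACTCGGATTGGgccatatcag
SDF2L1: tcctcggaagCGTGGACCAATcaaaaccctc

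The core of a further element, the UPRE bound by XBP1 and ATF6, was searched as ACGTGG on both strands and was far more common, in 3414 promoters (9.72%). It was found in DNAJB9, DNAJC3, HERPUD1 and HSP90B1, and in HERPUD1 1 of its matches overlaps the ERSE-II. DNAJB9 (chr7:108569790-108569841, plus strand) and DNAJC3 (chr13:95676949-95676974, plus strand) have the core without an ERSE or ERSE-II, and it is in capitals here. PDIA4 and MANF held none of these 3 motifs in this window.
DNAJB9: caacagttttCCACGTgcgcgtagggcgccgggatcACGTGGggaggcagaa
DNAJC3: tctcgtgcttCCACGTtatcctatca

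**Figure D1:**
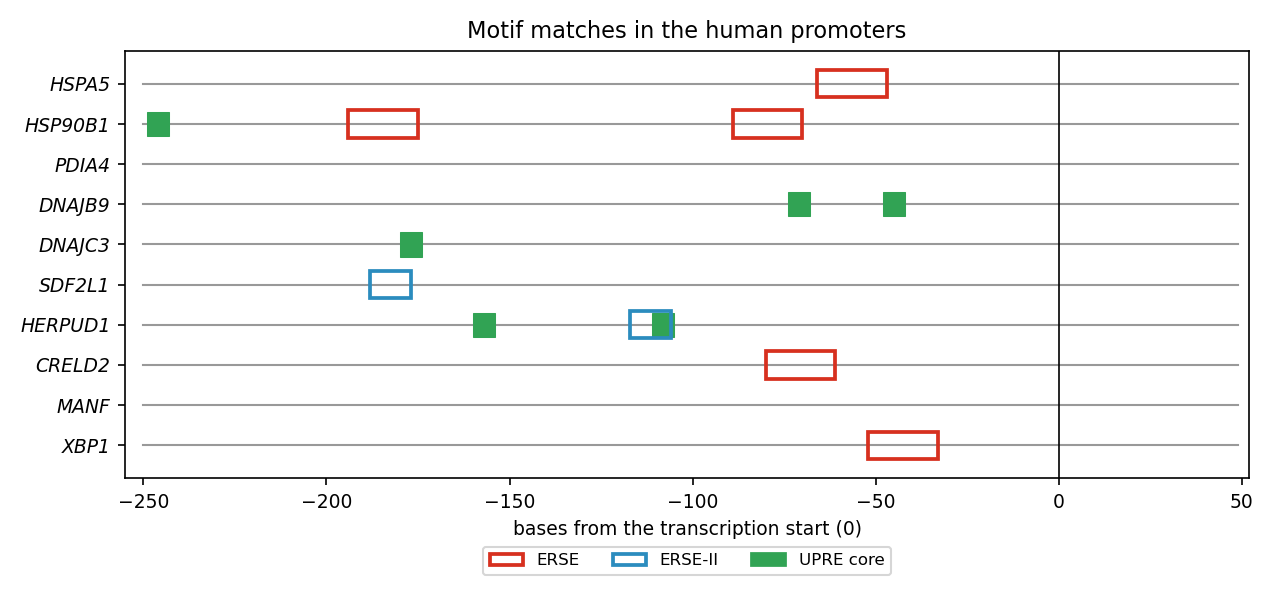
Matches to 3 ER stress motifs in the human promoters of the 10 genes, by distance in bases from the transcription start at 0. Red boxes are ERSE matches (HSPA5, HSP90B1, CRELD2, XBP1), blue boxes ERSE-II matches (SDF2L1, HERPUD1) and green boxes the UPRE core.

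After PDA-66 exposure more of these genes fell than rose. HERPUD1 fell in all 3 lines at 12 h (in LNCaP at an adjusted p under 0.05), to 0.504 of the PC-3 controls, 0.382 of those of LNCaP and 0.412 of those of CT1258. In both human lines, all PDA-66 samples of DNAJB9 and XBP1 also lay below all controls at both times, though not every value passed its threshold. In CT1258 the groups of DNAJB9 overlapped, and XBP1 was not listed. Between PC-3 and LNCaP at 12 h, the response differed in 0 of the 8 genes shared by all lines (interaction term, adjusted p under 0.05). In CT1258, 6 of 8 genes fell at 12 h and 4 of these were higher again at 24 h than at 12 h. In PC-3 the list had a lower median at 24 h than at 12 h. In LNCaP at an adjusted p under 0.05, DNAJB9 and HERPUD1 fell at both times and XBP1 at 12 h, and the other 7 genes did not pass. Calls are adjusted p-values of edgeR's quasi-likelihood test over all genes of a line, with the study's threshold of 0.001 unless 0.05 is named.

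In PC-3 at 12 h, 2 of 10 genes fell and 0 rose, beside 27.6% of all 13777 genes tested that passed in either direction and 14.6% that were lower. At 24 h, 4 fell and 0 rose, beside 19.3% of all genes in either direction and 10.5% lower. In LNCaP the test at 0.001 called 0 of the 10 genes at either time, 1 of all 13156 genes at 12 h (0.0076%) and 0 at 24 h (0%). At an unadjusted p under 0.05 it gave 5 of the 10 genes at 12 h and 3 at 24 h. The share of all genes at that level is not given here, so these counts have no background. DESeq2 at 0.001 called 2 at each time, beside 592 of all 19456 genes at 12 h and 273 at 24 h. Limma voom called 3 at each time, beside 1831 of all 13156 genes at 12 h and 1473 at 24 h. At an adjusted p under 0.05, 3 of 10 fell in LNCaP at 12 h beside 9.14% of all genes in either direction and 4.62% lower, and 2 fell at 24 h beside 2.92% and 1.57%. Without LNCaP control replicate 2 or 3, HERPUD1 was the only gene past 0.05 at 12 h. At 24 h no gene passed 0.05 without either of these controls or without any of the 24 h samples. In CT1258 at 12 h, 6 of 8 fell and 1 rose, beside 44.3% of all 9886 genes (22.1% lower, 22.2% higher). Of these 7, MANF did not pass without any 1 of the 12 h samples, and DNAJC3 did not pass without control replicate 3 or 12 h replicate 1 or 2. At 24 h 4 fell and 1 rose, beside 33.8% (17.2% lower, 16.6% higher). This count was 3 (PDIA4, SDF2L1 and CRELD2) without control replicate 1 or 3, 12 h replicate 2, or 24 h replicate 2 or 3. In these fits 2116 to 3191 of all genes passed, against 3340 with all samples.

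All PDA-66 samples lay below all controls in 3 of 10 genes at 12 h and 7 at 24 h in PC-3, beside 35.4% and 31.3% of all genes. The same was true of 3 of 10 genes at each time in LNCaP, beside 14.6% and 21.6%. CT1258 had 6 of 8 such genes at 12 h and 4 at 24 h, beside 36.6% and 33.2%.

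The list had a median log2 fold change of -0.31 at 12 h and -0.84 at 24 h in PC-3. These medians rested on the controls: they were 0.35 and -0.32 without control replicate 2, and -0.58 and -1.13 without control replicate 3. The LNCaP medians were 0.04 (-0.03 without 12 h replicate 2) and -0.07, and the CT1258 medians -1.21 and -0.41. The median of all genes tested lay between -0.01 and 0.03 in each of these comparisons.

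**Figure D2:**
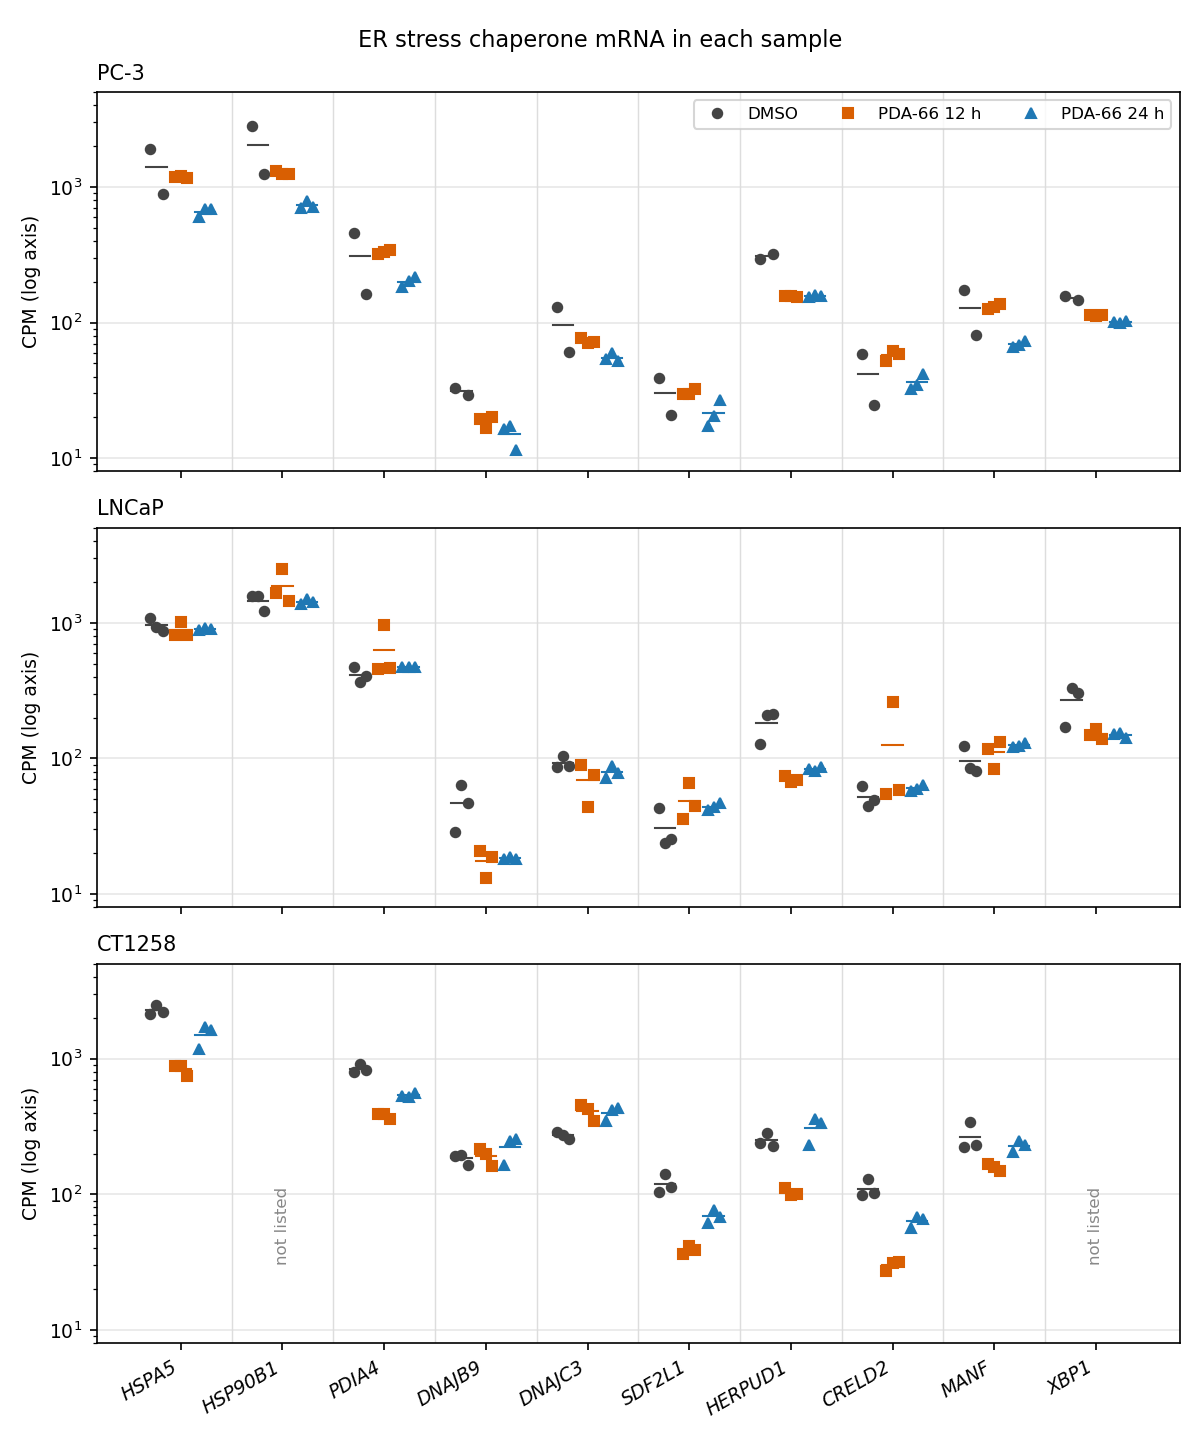
CPM on a log axis of each gene in every sample of PC-3, LNCaP and CT1258 (DMSO as circles, PDA-66 for 12 h as squares and for 24 h as triangles), with short lines at the group means. The PC-3 controls lie far apart for HSPA5, HSP90B1 and PDIA4, and in CT1258 the 12 h samples of HSPA5, PDIA4, SDF2L1, HERPUD1 and CRELD2 lie below both other groups.

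**Figure D3:**
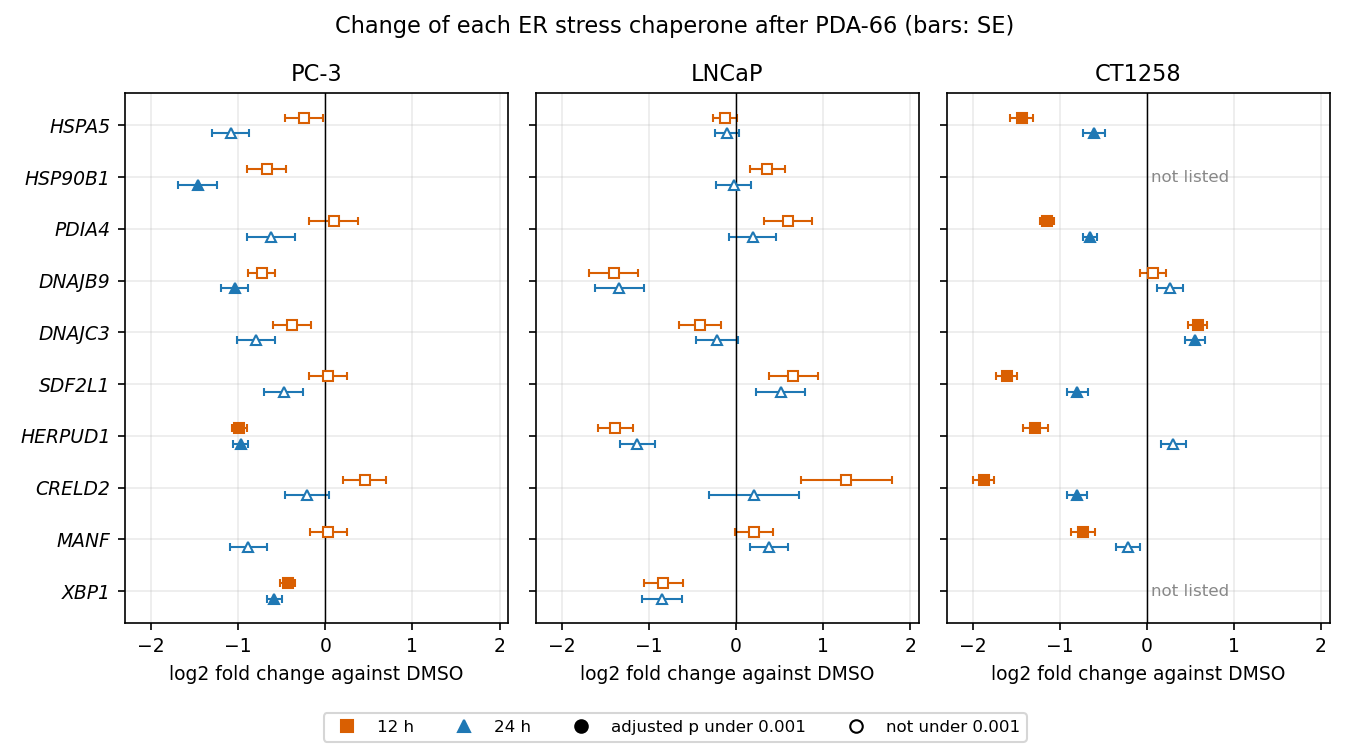
Log2 fold change of each gene against DMSO with its standard error, at 12 h (squares) and 24 h (triangles). Filled symbols passed an adjusted p of 0.001, as HERPUD1 did at both times in PC-3 and DNAJC3 did with a rise in CT1258.

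HERPUD1 encodes a membrane protein of the ER that helps to remove misfolded proteins through ER-associated degradation. Its gene lies at chr16:56966054-56978776 of GRCh37, the build of the human files. In PC-3 its controls were at 295 and 322 CPM, its 12 h samples at 156, 156 and 154 CPM and its 24 h samples at 154, 160 and 158 CPM. The PDA-66 samples were thus all below the controls and hardly varied. The log2 fold change was -0.99 ± 0.09 (SE) at 12 h (adjusted p = 9.97e-07) and -0.97 ± 0.09 at 24 h (adjusted p = 2.48e-06).

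In LNCaP, HERPUD1 was at 128, 211 and 213 CPM in the controls, at 74.4, 66.5 and 69.6 CPM at 12 h and at 84.1, 80.6 and 86.2 CPM at 24 h. Each PDA-66 sample was below each control, with replicate 1 the lowest control. The log2 fold change was -1.39 ± 0.20 (SE) at 12 h (adjusted p = 0.00784) and -1.14 ± 0.20 at 24 h (adjusted p = 0.0278). In CT1258, the controls were at 241, 283 and 228 CPM, the 12 h samples at 111, 98.8 and 100 CPM and the 24 h samples at 230, 362 and 338 CPM. HERPUD1 thus fell at 12 h (-1.28 ± 0.14, adjusted p = 3.15e-06) and was back among or above the controls at 24 h (0.31 ± 0.14, adjusted p = 0.0705).

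XBP1, the transcription factor of the IRE1 arm, lies at chr22:29190543-29196585 (GRCh37, minus strand). Its PC-3 controls were at 157 and 147 CPM, its 12 h samples at 114, 111 and 113 CPM and its 24 h samples at 102, 99.9 and 103 CPM. The fall was small and even, to 0.742 of the control at 12 h (adjusted p = 8.63e-04) and 0.666 at 24 h (adjusted p = 1.17e-04). In LNCaP, its controls were at 172, 330 and 303 CPM, its 12 h samples at 148, 164 and 140 CPM and its 24 h samples at 151, 154 and 141 CPM. No PDA-66 sample reached the lowest control. The log2 fold change was -0.83 ± 0.23 (SE) at 12 h, which passed 0.05 (adjusted p = 0.0481), and -0.85 ± 0.23 at 24 h, which did not (adjusted p = 0.0762).

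DNAJB9 (ERdj4) is a co-chaperone that brings substrates and HSPA5 together and is a known target of XBP1. It lies at chr7:108210311-108215294 of GRCh37. In PC-3 it was at 32.7 and 29.4 CPM in the controls, at 19.3, 16.8 and 20.0 CPM at 12 h and at 16.3, 17.4 and 11.6 CPM at 24 h. The groups did not overlap at either time. The log2 fold change was -0.73 ± 0.15 (SE) at 12 h, short of 0.001 (adjusted p = 0.00118), and -1.04 ± 0.15 at 24 h (adjusted p = 1.27e-04).

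In LNCaP, DNAJB9 was at 28.8, 64.0 and 47.3 CPM in the controls, at 20.9, 13.2 and 18.7 CPM at 12 h and at 18.2, 18.9 and 18.2 CPM at 24 h. All PDA-66 samples were below the controls, which themselves differed up to 2.22-fold. On the log2 scale, the change was -1.40 ± 0.28 (SE) at 12 h (adjusted p = 0.0192) and -1.34 ± 0.28 at 24 h (adjusted p = 0.0407). In CT1258, DNAJB9 was at 192, 195 and 165 CPM in the controls, at 217, 199 and 162 CPM at 12 h and at 165, 246 and 256 CPM at 24 h. These groups overlapped, and neither the 12 h value (0.07 ± 0.15, adjusted p = 0.704) nor the 24 h value (0.27 ± 0.15, adjusted p = 0.127) passed.

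HSPA5, the Hsp70 chaperone at the centre of the response, lies at chr9:127997132-128003661 of GRCh37. In CT1258 it was at 2152, 2501 and 2192 CPM in the controls, at 890, 883 and 751 CPM at 12 h and at 1174, 1697 and 1616 CPM at 24 h. The 3 groups were fully apart, with 12 h lowest. The level fell to 0.369 of the control at 12 h (adjusted p = 4.44e-07) and 0.656 at 24 h (adjusted p = 9.58e-04).

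In PC-3, HSPA5 was at 1902 and 881 CPM in the controls, at 1173, 1197 and 1153 CPM at 12 h and at 597, 684 and 681 CPM at 24 h. The 12 h samples lay between the 2 controls, and the 24 h samples lay below both. On the log2 scale, the change was -0.24 ± 0.22 (SE) at 12 h (adjusted p = 0.353) and -1.09 ± 0.21 at 24 h, which missed 0.001 (adjusted p = 0.00102). In LNCaP, HSPA5 was at 1079, 937 and 876 CPM in the controls, at 818, 1016 and 819 CPM at 12 h and at 883, 908 and 895 CPM at 24 h. The groups overlapped, and the log2 fold change was -0.12 ± 0.14 (adjusted p = 0.575) and -0.11 ± 0.14 (adjusted p = 0.744).

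HSP90B1 (GRP94), the Hsp90 chaperone of the ER, had the highest CPM of the list in both human lines. It lies at chr12:104323885-104347709 (GRCh37), where 6.15% of its annotated exon bases are shared with UQCC6 on the opposite strand, and the sources used here do not say whether counting used the strand. In PC-3 it was at 2802 and 1242 CPM in the controls, at 1311, 1239 and 1251 CPM at 12 h and at 699, 781 and 713 CPM at 24 h. The lower control matched the 12 h samples, and the 24 h samples lay below both controls. On the log2 scale, the change was -0.67 ± 0.22 (SE) at 12 h (adjusted p = 0.0198) and -1.47 ± 0.22 at 24 h (adjusted p = 1.52e-04). In LNCaP it was at 1562, 1586 and 1224 CPM in the controls, at 1669, 2482 and 1448 CPM at 12 h and at 1370, 1504 and 1419 CPM at 24 h, with overlap and with no call (adjusted p = 0.257 and 0.967).

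PDIA4 (ERp72), a disulfide isomerase, lies at chr7:148700154-148725754 of GRCh37. In CT1258 it was at 800, 913 and 823 CPM in the controls, at 394, 392 and 358 CPM at 12 h and at 531, 519 and 562 CPM at 24 h. As with HSPA5, all samples at 12 h were lowest and those at 24 h lay in between. It fell by 1.15 on the log2 scale at 12 h (SE 0.08, adjusted p = 6.87e-08) and by 0.65 at 24 h (SE 0.08, adjusted p = 1.54e-05). In PC-3 it was at 458 and 162 CPM in the controls, at 321, 329 and 343 CPM at 12 h and at 184, 202 and 216 CPM at 24 h. No other gene of the list differed as much between the PC-3 controls (2.83-fold), all PDA-66 samples lay between them, and neither time passed (adjusted p = 0.790 and 0.0732). In LNCaP it was at 475, 367 and 404 CPM in the controls, at 454, 967 and 464 CPM at 12 h and at 473, 471 and 475 CPM at 24 h, where the high value is that of replicate 2, the sample that stood apart.

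DNAJC3 (p58IPK), a co-chaperone of HSPA5 that also inhibits PERK, was the gene that rose. It lies at chr13:96329393-96447242 of GRCh37. In CT1258 it was at 288, 275 and 255 CPM in the controls, at 456, 425 and 346 CPM at 12 h and at 346, 418 and 436 CPM at 24 h. All PDA-66 samples were above all controls, by 0.58 on the log2 scale at 12 h (adjusted p = 3.62e-04) and by 0.55 at 24 h (adjusted p = 7.33e-04). In PC-3 it was at 130 and 60.6 CPM in the controls, at 77.1, 71.2 and 71.7 CPM at 12 h and at 53.4, 59.2 and 52.2 CPM at 24 h. Here the 24 h samples were below both controls, but the value missed 0.001 (-0.80 ± 0.22, adjusted p = 0.00790). In LNCaP it was at 86.1, 104 and 88.0 CPM in the controls, at 89.0, 43.6 and 75.8 CPM at 12 h and at 72.2, 87.3 and 78.5 CPM at 24 h, and neither time passed (adjusted p = 0.273 and 0.681).

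SDF2L1 works with HSPA5 and its co-chaperones and lies at chr22:21996591-21998588 of GRCh37. In CT1258 it was at 104, 142 and 113 CPM in the controls, at 36.5, 41.9 and 39.2 CPM at 12 h and at 62.0, 76.2 and 68.2 CPM at 24 h. The groups were fully apart, and the level was 0.327 of the control at 12 h (adjusted p = 1.07e-07) and 0.574 at 24 h (adjusted p = 5.91e-05). PC-3 cells had it at 39.2 and 20.8 CPM in the controls, at 29.8, 29.6 and 32.6 CPM at 12 h and at 17.3, 20.5 and 27.0 CPM at 24 h. These overlapped (adjusted p = 0.912 and 0.0903). In LNCaP it was at 43.2, 23.7 and 25.6 CPM in the controls, at 35.7, 66.0 and 44.3 CPM at 12 h and at 41.9, 43.7 and 46.7 CPM at 24 h, also with overlap (adjusted p = 0.154 and 0.354).

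CRELD2 is a secreted protein of the ER stress response with disulfide isomerase activity and lies at chr22:50311815-50321188 of GRCh37, where 3.25% of its exon bases are shared with ALG12 on the opposite strand. In CT1258 it was at 99.7, 129 and 102 CPM in the controls, at 27.4, 31.2 and 31.8 CPM at 12 h and at 56.2, 67.7 and 65.9 CPM at 24 h. This was the deepest fall of the list in any line, to 0.273 of the control at 12 h (adjusted p = 2.59e-08), with 0.573 at 24 h (adjusted p = 4.40e-05). PC-3 cells had it at 58.9 and 24.9 CPM in the controls, at 52.1, 61.6 and 58.3 CPM at 12 h and at 32.1, 34.8 and 41.9 CPM at 24 h, without a call (adjusted p = 0.138 and 0.504). In LNCaP it was at 62.2, 44.6 and 49.2 CPM in the controls, at 55.0, 261 and 58.8 CPM at 12 h and at 57.7, 59.1 and 63.5 CPM at 24 h. The value of 261 CPM is again replicate 2. The log2 fold change at 12 h was 1.26 ± 0.52 (SE, adjusted p = 0.143) with this sample and 0.13 without it (adjusted p = 0.494).

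MANF, a secreted protein that protects stressed cells, lies at chr3:51422722-51426828 of GRCh37. In CT1258 it was at 223, 340 and 229 CPM in the controls, at 167, 160 and 149 CPM at 12 h and at 206, 246 and 232 CPM at 24 h. It fell at 12 h (-0.73 ± 0.14, adjusted p = 3.24e-04) and overlapped the controls at 24 h (-0.21 ± 0.14, adjusted p = 0.191). PC-3 cells had it at 174 and 81.1 CPM in the controls, at 125, 129 and 137 CPM at 12 h and at 65.9, 68.8 and 73.0 CPM at 24 h. The 24 h samples were below both controls, with an adjusted p of 0.00407 (-0.88 ± 0.21), and the 12 h samples lay between them (adjusted p = 0.910). In LNCaP it was at 124, 85.0 and 80.5 CPM in the controls, at 118, 83.4 and 133 CPM at 12 h and at 122, 124 and 129 CPM at 24 h, and neither value passed (adjusted p = 0.547 and 0.392).

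The PC-3 controls split the list. Replicate 2 was higher than replicate 3 by 1.89-fold in SDF2L1, 2.15-fold in DNAJC3 and MANF, 2.16-fold in HSPA5, 2.26-fold in HSP90B1, 2.37-fold in CRELD2 and 2.83-fold in PDIA4. HERPUD1, DNAJB9 and XBP1 differed by only 1.09-fold, 1.11-fold and 1.07-fold, and HERPUD1 was the higher in replicate 3. The calls at 12 h, HERPUD1 and XBP1, therefore came from genes on which the controls were close. Without control replicate 2, PDIA4 (1.04, adjusted p = 2.63e-06), CRELD2 (1.21, adjusted p = 2.45e-05) and MANF (0.70, adjusted p = 7.09e-05) were higher at 12 h, HERPUD1 was lower (-1.04) and XBP1 no longer passed (-0.38, adjusted p = 0.00189). Without control replicate 3, HSPA5 (-0.69), HSP90B1 (-1.14), DNAJC3 (-0.82), HERPUD1 (-0.91) and XBP1 (-0.47) were lower at 12 h and no gene was higher. At 24 h, 7 of the 10 log2 fold changes were negative without control replicate 2 and 10 without control replicate 3. Without replicate 2 and then replicate 3, the change was -0.95 and -1.09 for DNAJB9, -1.03 and -0.89 for HERPUD1, and -0.53 and -0.61 for XBP1. The change of HSP90B1 at 24 h was -0.76 without control replicate 2 and -1.92 without control replicate 3. It did not pass at 24 h without 24 h replicate 1 or 3, and XBP1 did not pass there without 24 h replicate 2. At 12 h only HERPUD1 passed without any 1 of the 12 h samples or without 24 h replicate 1 or 2. With 1 control, the test assumes that it varies as the other groups do.

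**Figure D4:**
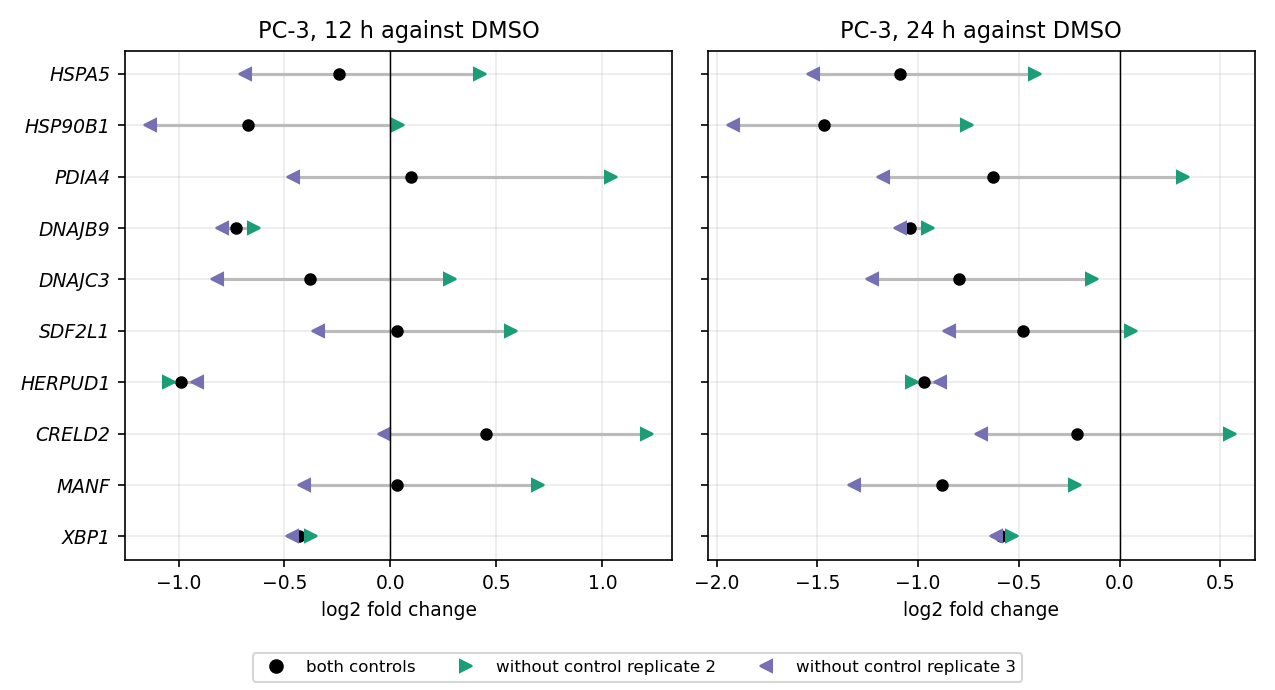
Log2 fold change of each gene in PC-3 with both controls (black points), without control replicate 2 (green) and without control replicate 3 (purple), at 12 h and 24 h. HERPUD1, DNAJB9 and XBP1 hardly move, whereas PDIA4 moves from 1.04 to -0.46 at 12 h.

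The comparison of 24 h with 12 h does not use the controls. In PC-3 at 0.001, edgeR called 0 of the 10 genes, beside 1.41% of all genes in either direction. Of the 10, 6 had an unadjusted p under 0.05, a level for which no share of all genes is given here. DESeq2 called 0, beside 500 of all 19781 genes, and limma voom 6, all lower, beside 2320 of all 13777 genes in either direction. The groups of 8 genes did not overlap, all 8 lower at 24 h, beside 18.7% of all genes. At 0.05, HSPA5 (-0.84 ± 0.20, adjusted p = 0.0153), HSP90B1 (-0.79 ± 0.20, adjusted p = 0.0257) and MANF (-0.92 ± 0.19, adjusted p = 0.00971) fell from 12 h to 24 h, beside 4.5% of all genes that were lower. With 1 control left out, these changes hardly moved, which is no check of them, because the controls carry no weight in this comparison. Without control replicate 2 or 3, HSPA5 changed by -0.85 or -0.84, HSP90B1 by -0.79 in each fit, and MANF by -0.92 or -0.91. The controls enter the common estimate of the spread. The calls at 0.05 did depend on the PDA-66 samples. HSPA5 and MANF passed without 12 h sample P12-1, and MANF alone passed without P12-2. HERPUD1 differed little (0.01 ± 0.08, adjusted p = 0.936).

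In CT1258 the list moved the other way. From 12 h to 24 h, HERPUD1 rose by 1.58 on the log2 scale (adjusted p = 5.27e-05), CRELD2 by 1.07 (adjusted p = 1.19e-04), HSPA5 by 0.83 (adjusted p = 8.43e-04) and SDF2L1 by 0.81 (adjusted p = 8.80e-04). These were 4 of 8 genes, beside 2.13% of all genes in either direction, 0.85% higher and 1.28% lower. PDIA4 (1.41-fold, adjusted p = 0.00146) and MANF (1.43-fold, adjusted p = 0.0199) were higher in all samples but missed 0.001, and DNAJC3 differed little (-0.03 ± 0.11, adjusted p = 0.873). The count rested on few samples: only HERPUD1 passed when any of the 3 samples at 12 h, or replicate 2 or 3 at 24 h, was left out, and 6 passed without control replicate 2. The calls over all genes moved too. They were 211 with all samples, 20 to 81 without 1 of these PDA-66 samples, and 1352 of 9934 without control replicate 2. In LNCaP, 0 of the 10 genes passed 0.001, beside 0% of all genes, and 0 had an unadjusted p under 0.05. DESeq2 and limma voom also called 0, beside 1 of all 19456 genes and 189 of all 13156.

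The response of the 8 genes listed in all 3 lines was compared between lines as an interaction, over 11736 shared symbols and at an adjusted p of 0.05. LNCaP and CT1258 differed at 12 h in 7 of 8 genes, beside 40.2% of all genes. HERPUD1, which fell in both, was the exception (-0.16 ± 0.23, adjusted p = 0.657). CRELD2 differed by 3.06 ± 0.53 (SE) on the log2 scale, SDF2L1 by 2.21 ± 0.33 and HSPA5 by 1.26 ± 0.25, each with the more negative value in CT1258. Without LNCaP 12 h replicate 2 the difference of CRELD2 was 1.96 (adjusted p = 2.53e-06). DNAJB9 (-1.51 ± 0.31) and DNAJC3 (-1.04 ± 0.31) were the more negative in LNCaP. At 24 h DNAJB9, HERPUD1 and SDF2L1 differed, 3 of 8 beside 21.1% of all genes, and 6 differed without LNCaP 12 h replicate 2.

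PC-3 and CT1258 differed in 5 of 8 genes at 12 h, beside 30.1% of all genes, and in 3 of 8 at 24 h, beside 21.2%. At 24 h these were DNAJB9, DNAJC3 and HERPUD1, each with a negative log2 fold change in PC-3 and a positive one in CT1258. Without PC-3 control replicate 3, 5 of 8 differed (HSPA5, DNAJB9, DNAJC3, HERPUD1 and MANF). Without control replicate 2, DNAJB9, HERPUD1 and PDIA4 differed, and DNAJC3 did not (-0.73, adjusted p = 0.103). The 5 genes at 12 h were HSPA5, PDIA4, SDF2L1, CRELD2 and DNAJC3. Of these, DNAJC3 did not pass without control replicate 2 (-0.35, adjusted p = 0.455), where MANF did, and PDIA4 did not pass without control replicate 3 (0.73, adjusted p = 0.121). The difference of HERPUD1 at 24 h was -1.29 ± 0.24 (SE, adjusted p = 4.98e-04). PC-3 and LNCaP differed in 0 of 8 at 12 h, with 0 at an unadjusted p under 0.05, beside 19.6% of all genes. Without LNCaP control replicate 1 they differed in 3 (DNAJB9, SDF2L1 and HERPUD1), and without PC-3 control replicate 3 in PDIA4. At 24 h they differed in HSPA5 (-0.96 ± 0.27, adjusted p = 0.0229) and MANF (-1.23 ± 0.32, adjusted p = 0.0146), 2 of 8 beside 9.7% of all genes. Neither passed without PC-3 control replicate 2, and 5 of 8 passed without control replicate 3. MANF alone passed without PC-3 24 h replicate 1 or LNCaP control replicate 2 or 3, and 4 passed without LNCaP 12 h replicate 2. In a fit of the human tables alone, which also hold HSP90B1 and XBP1, 0 of 10 passed at 12 h, beside 13.7% of all genes, with HSP90B1 nearest (-0.98 ± 0.34, adjusted p = 0.0653). At 24 h HSP90B1 (-1.41 ± 0.34, adjusted p = 0.0210) and MANF (-1.22 ± 0.35, adjusted p = 0.0497) passed, beside 5.99%, and HSPA5 did not (adjusted p = 0.0643).

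Before treatment, PC-3 and LNCaP were compared in 1 fit of both human tables, where cell line and culture medium cannot be told apart. HERPUD1 was higher in PC-3, at 299.7 and 327 CPM against 127 to 214 CPM in LNCaP (0.77 ± 0.17 on the log2 scale, adjusted p = 8.42e-04), and was the only 1 of 10 genes to pass 0.001, beside 40.8% of all 15018 genes. Without PC-3 control replicate 2 no gene passed, without control replicate 3 HSPA5 passed and HERPUD1 did not, and without LNCaP control replicate 1 both HERPUD1 and XBP1 passed. XBP1 was lower in PC-3 (-0.79 ± 0.20), at 149.6 and 159.8 CPM against 172 to 328 CPM, and missed 0.001 (adjusted p = 0.00230). HSPA5 (0.56 ± 0.21, adjusted p = 0.0321) and HSP90B1 (0.50 ± 0.25, adjusted p = 0.0932) were not called at 0.001.

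To order the genes by level, CPM was divided by the length in kilobases of the canonical transcript. In the LNCaP controls, HSP90B1 was highest at 524 ± 72.7 CPM per kb (SD, n = 3), followed by HSPA5 at 246 ± 26.6, PDIA4 at 150.04 ± 19.8, XBP1 at 149.8 ± 47.2, MANF at 106 ± 26.2 and HERPUD1 at 64.4 ± 17.0. SDF2L1 at 37.4 ± 13.1, CRELD2 at 36.4 ± 6.37, DNAJB9 at 19.4 ± 7.32 and DNAJC3 at 16.6 ± 1.72 CPM per kb came last. Neighbours whose samples overlapped were PDIA4 with XBP1, XBP1 with MANF, HERPUD1 with SDF2L1, SDF2L1 with CRELD2, and DNAJB9 with DNAJC3. In the PC-3 controls the order also began with HSP90B1 at 727 ± 397 CPM per kb (SD, n = 2) and HSPA5 at 355 ± 184 and ended with DNAJC3 at 17.1 ± 8.83 and DNAJB9 at 12.9 ± 0.952.

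The other genes of the pathway were read from 6 lists. Their counts without 1 library are given without a share of all genes, which can move in such fits too. Their counts with all samples stand beside the shares of all genes called in the same direction. These were 14.6% lower and 13% higher at 12 h and 10.5% lower and 8.88% higher at 24 h in PC-3, 22.1% lower and 22.2% higher and then 17.2% lower and 16.6% higher in CT1258, and, at 0.05, 4.62% lower and 4.52% higher and then 1.57% lower and 1.35% higher in LNCaP. In the list of 22 other ER folding genes, PC-3 showed 1 lower gene at 12 h and 4 at 24 h, with a median log2 fold change of -0.17 and -0.49. SIL1, which recharges HSPA5 with ATP, fell by 1.57 and 1.55 on the log2 scale, and of those past the threshold at 24 h the co-chaperone DNAJC1 fell least (-0.77). In CT1258, 9 of 19 fell and 1 rose at 12 h, and 5 fell and 1 rose at 24 h. FKBP2, a prolyl isomerase, fell by 2.23 and 1.65 on the log2 scale, and the ER reductase DNAJC10 rose by 0.70 and 0.56. LNCaP had none past 0.05 in this list, and 1 higher and 2 lower at 12 h and 5 lower at 24 h without 12 h replicate 2. The PC-3 counts moved with the controls. Without control replicate 2, 7 were higher and 2 lower at 12 h (median 0.16) and 2 higher and 4 lower at 24 h, and without control replicate 3, 5 were lower at 12 h and 13 at 24 h.

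Of 21 genes of ER-associated degradation, PC-3 had 1 higher and 2 lower at 12 h and 1 lower at 24 h. EDEM1, which takes misfolded glycoproteins out of the folding cycle, fell by 1.31 and 1.27 on the log2 scale in PC-3, and NPLOC4, a cofactor of the p97 ATPase, rose at 12 h (0.62). Without control replicate 2, 3 were higher and 2 lower at 12 h and 2 higher and 1 lower at 24 h, and without control replicate 3, 1 was higher and 4 lower at 12 h and 4 lower at 24 h. In LNCaP none passed 0.05, and 2 rose and 3 fell at each time without 12 h replicate 2. In CT1258, 2 rose and 4 fell of 19 at 12 h, and 1 rose and 4 fell at 24 h, with UBE2J1, a ubiquitin-conjugating enzyme, the highest (1.25 and 0.95) and the lectin OS9 the lowest (-0.79 and -0.51).

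Among 11 stress sensors and proteases, the membrane-bound factor CREB3L1 fell most in PC-3 (-2.25 at 12 h, -1.58 at 24 h) and in CT1258 (-1.55 and -1.69). ATF6 itself fell in PC-3 at 24 h (-0.51, adjusted p = 7.96e-04), and WFS1 rose there at 12 h (1.15). In CT1258 EIF2AK3 rose at 12 h (0.51), and at 24 h the protease gene MBTPS1 had the smallest fall that passed (-0.36). In LNCaP, ERN1 was the gene past 0.05, at 12 h (-1.81, adjusted p = 0.0240). In PC-3, 1 rose and 2 fell of 11 at 12 h and 3 fell at 24 h, and in CT1258 1 rose and 5 fell of 10 at 12 h and 5 fell at 24 h. In PC-3 without control replicate 2, 2 rose and 1 fell at each time, and without control replicate 3, 1 rose and 4 fell at 12 h and 3 fell at 24 h. In LNCaP without 12 h replicate 2, 3 fell at 12 h and 4 at 24 h at 0.05.

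In the PERK and ATF4 list, 6 of 16 genes fell and 1 rose at 12 h and 3 fell at 24 h in PC-3, beside 14.6% and 10.5% of all genes lower. With control replicate 2 left out, 11 fell at 12 h and 9 at 24 h, and without control replicate 3, 5 and 3 fell and 1 rose at each time. In CT1258, 13 of 15 fell and 2 rose at 12 h, with a median log2 fold change of -2.07, and 10 fell and 2 rose at 24 h, beside 22.1% and 17.2% of all genes lower. In LNCaP, 3 of 16 fell at 12 h and 4 at 24 h at 0.05, beside 4.62% and 1.57% of all genes, and the median was -1.07 and -1.44. Without LNCaP 12 h replicate 2, 12 of 16 fell at 12 h and 15 at 24 h. DDIT4, an inhibitor of mTOR signalling, fell in CT1258 (-2.90 and -2.74) and at 24 h in PC-3 (-1.10), and NUPR1, a stress regulator, fell by 1.54 and 1.43 in PC-3. DDIT3 (CHOP), a factor linked to cell death under ER stress, fell by 2.64 at 12 h in LNCaP (adjusted p = 0.00637), CHAC1, which degrades glutathione, by 3.54 at 24 h (adjusted p = 0.0299), and SESN2 by 1.24 at 12 h. ATF3, a stress factor of the same arm, rose in PC-3 at 12 h (1.96) and in CT1258 (0.93 and 0.77). Its log2 fold changes in LNCaP were -2.01 and -1.81, values chosen after they were seen and given here without a call.

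Of 27 genes of protein entry into the ER and early secretion, 5 fell in PC-3 at 12 h and 4 at 24 h, beside 14.6% and 10.5% of all genes lower, with SEC61G of the translocon (-0.86 and -0.77), the signal peptidase gene SEC11A (-0.66 at 12 h) and SSR2 (-0.94 at 24 h) among them. Leaving out control replicate 2, 3 rose and 6 fell at 12 h and 2 rose and 6 fell at 24 h, and without control replicate 3, 4 fell at 12 h and 5 at 24 h. In LNCaP none passed 0.05, and without 12 h replicate 2, 1 rose and 3 fell at 12 h and 1 rose and 2 fell at 24 h. In CT1258, 7 rose and 2 fell of 15 at 12 h and 2 rose and 1 fell at 24 h, with SSR3 highest (0.76 and 0.88), SSR4 lowest at 12 h (-0.78) and the receptor gene SRPRA lowest at 24 h (-0.57).

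Cytosolic heat shock chaperones, which fold proteins outside the ER and are known targets of the factor HSF1, mostly rose where they passed. In PC-3, 15 of 17 rose at 12 h and 9 at 24 h and none fell, with medians of 1.07 and 0.62, beside 13% and 8.88% of all genes higher. Without control replicate 2 the counts were 16 and 10, and without control replicate 3 they were 15 and 9. CHORDC1, a partner of Hsp90, rose by 1.90 and 1.51 on the log2 scale, and HSP90AB1 (0.61 at 12 h) and FKBP4 (0.62 at 24 h) rose least of those that passed. In CT1258, 10 of 13 rose and 1 fell at 12 h and 7 rose and 2 fell at 24 h, beside 22.2% and 16.6% of all genes higher, with HSP90AA1 (2.01 at 12 h) and HSPH1 (1.46 at 24 h) highest and HSPB1 lowest (-0.72 and -0.66). In LNCaP, 7 of 16 tested rose at 12 h at 0.05, beside 4.52% of all genes higher, from HSPA8 (0.46) to HSPA1B (1.36), which has a near-identical copy in HSPA1A, and at 24 h none passed. Without LNCaP 12 h replicate 2, 12 rose at 12 h and 9 at 24 h.

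**Figure D5:**
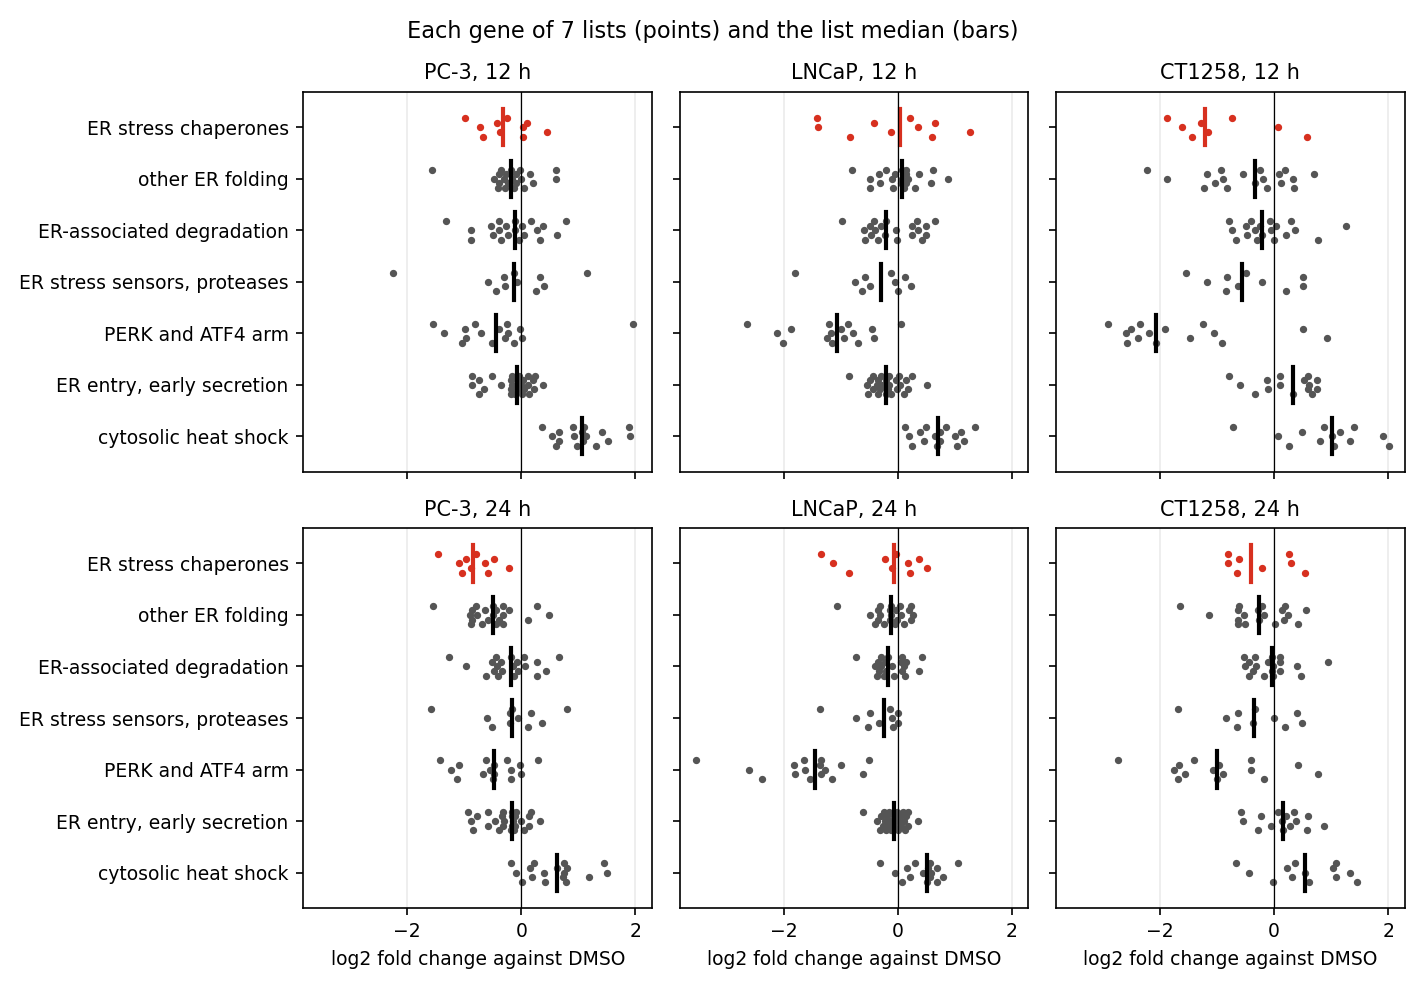
Log2 fold change against DMSO of every gene tested in 7 lists, by cell line and time, with a bar at each list's median. The ER stress chaperones (red) have medians of -0.31, 0.04 and -1.21 at 12 h in PC-3, LNCaP and CT1258, and the cytosolic heat shock chaperones 1.07, 0.71 and 1.02. The PC-3 median of the former is 0.35 without control replicate 2, and the LNCaP one is -0.03 without 12 h replicate 2.

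The genes whose 6 changes against DMSO were nearest to those of HSPA5 were sought among the 8265 genes tested in all 3 lines, HSPA5 included. The measure was the root mean square difference of the log2 fold changes from HSPA5 (median of the other genes, 0.915). The HSPA5 change in PC-3 at 12 h that enters it was 0.42 without control replicate 2 and -0.69 without control replicate 3. Nearest were MAP3K13 (0.255), PLCD3 (0.269), RRAS (0.278), PPIB (0.282) and HYOU1 (0.291). PPIB (cyclophilin B) and HYOU1 (GRP170) are folding factors of the ER, and the others are signalling genes. Of the list itself, PDIA4 came at rank 188, MANF at 244 and SDF2L1 at 568, whereas CRELD2 came at 2642, HERPUD1 at 3243, DNAJC3 at 4691 and DNAJB9 at 5360.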

How the data were processed

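RNA-seq of the 3 prostate carcinoma lines was analysed from the gene count tables that the authors deposited. Per the labels and the methods of the study, poly(A) RNA was sequenced as single reads and counted per gene, after alignment with STAR 2.3.1s to hg19 for the human lines and with BWA to CanFam3.1 for CT1258. Whether counting used the strand is not given in the sources used here. The last PC-3 column was deposited with 7 separators after each count (a unit entered as other), which were removed. Columns P12-1 and P12-2 of PC-3 could be tied to the 12 h group but not to a replicate number. The study describes the replicates as independent biological replicates.

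Each line was fitted over all its samples with edgeR 4.0.16 in R 4.3.3 (filterByExpr defaults, TMM scaling, quasi-likelihood test, Benjamini-Hochberg adjustment over all genes tested, threshold 0.001). Fold changes and standard errors come from that fit. Differences in response between lines were interaction terms in 1 fit of the 3 lines over shared symbols (threshold 0.05). Alternatives used limma 3.58.1, DESeq2 1.42.0, other filters and scalings, and each sample left out in turn. The fit of the human tables alone, and the counts of the context lists without single libraries, were chosen after seeing the data. The scripts were tested on simulated data. In LNCaP at 0.001 they recovered 0 of 198 genes at 12 h and 0 of 199 at 24 h with a simulated log2 change of 1. With a log2 change of 2 they recovered 132 of 198 and 127 of 200. Counts of 0 in LNCaP at 0.001 therefore do not show that the genes stayed unchanged. Named genes of the context lists are those with the highest and the lowest fold change among those past the threshold (0.05 in LNCaP), and genes like HSPA5 are the 5 nearest. The 10 genes and the other lists were chosen with earlier results of these data known. The p-values set differences between groups against the spread between these samples, and they do not extend to other cell lines or tumours.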

Additional observations from a re-analysis of the deposited data

Results flagged for a closer look

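The response to PDA-66 differed between cell lines, by the interaction term of edgeR's quasi-likelihood test at an adjusted p of 0.05, in 20 of the 48 comparisons of the 8 shared genes. Each value below is the difference between the log2 fold changes of the first and the second line.

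Between LNCaP and CT1258 at 12 h, it was 1.26 for HSPA5 (adjusted p = 4.66e-04), 1.68 for PDIA4 (5.95e-04), 2.21 for SDF2L1 (2.26e-05), 3.06 for CRELD2 (1.13e-04) and 0.90 for MANF (0.0206). It was -1.51 for DNAJB9 (adjusted p = 6.37e-04) and -1.04 for DNAJC3 (0.00890). The value of CRELD2 includes LNCaP 12 h replicate 2, the sample at 261 CPM, and was 1.96 without it. At 24 h it was -1.64 for DNAJB9 (adjusted p = 8.27e-04), 1.28 for SDF2L1 (0.00673) and -1.47 for HERPUD1 (1.07e-04).

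Between PC-3 and CT1258 at 12 h, it was 1.19 for HSPA5 (adjusted p = 0.00183), 1.24 for PDIA4 (0.0136), 1.63 for SDF2L1 (0.00104), 2.31 for CRELD2 (0.00319) and -0.98 for DNAJC3 (0.0237). These rest on PC-3 controls that differed 1.89-fold to 2.83-fold in these genes: without control replicate 2 the value of DNAJC3 was -0.35 and did not pass and that of PDIA4 was 2.14, and without control replicate 3 the value of PDIA4 was 0.73 and did not pass and that of HSPA5 was 0.79. At 24 h it was -1.32 for DNAJB9 (adjusted p = 0.00602), -1.35 for DNAJC3 (0.00387) and -1.29 for HERPUD1 (4.98e-04). That of DNAJC3 was -0.73 without control replicate 2 and did not pass.

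Between PC-3 and LNCaP at 24 h, it was -0.96 for HSPA5 (adjusted p = 0.0229) and -1.23 for MANF (0.0146). Both PC-3 values rest on controls that differed 2.16-fold in HSPA5 and 2.15-fold in MANF. Species, culture medium and reference annotation cannot be told apart from the cell line in these comparisons.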

How the results depend on the processing

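Counts are of the listed genes past the threshold. In PC-3 at 12 h the count of 2 became 1 with library size scaling, with limma voom and with only the 2 groups in the fit, and 4 at an adjusted p of 0.05. The calls over all genes went from 3797 to 3846 with library size scaling, 2863 with limma voom and 2634 with only the 2 groups. At 24 h the count of 4 became 7 with the likelihood ratio test (all genes from 2665 to 4218) and 7 at 0.05. Between 24 h and 12 h in PC-3 the count of 0 became 2 with the likelihood ratio test, 3 at 0.05, 6 with limma voom and 5 with only the 2 groups. Over all genes, 194 calls became 696 with the likelihood ratio test, 2320 with limma voom and 479 with only the 2 groups. In LNCaP the counts of 0 became 2 at 12 h and 2 at 24 h with the likelihood ratio test and with DESeq2, 3 and 2 at 0.05, and 3 and 3 with limma voom. The calls over all genes were 571 and 258 with the likelihood ratio test, 592 and 273 with DESeq2, and 1831 and 1473 with limma voom. In CT1258 at 24 h the count of 5 became 3 with only the 2 groups (all genes from 3340 to 2407). At 0.001 the differences between lines numbered 0 for PC-3 against LNCaP at 24 h, 0 for PC-3 against CT1258 at 12 h and 1 at 24 h. For untreated PC-3 against LNCaP the count of 1 became 3 at 0.05, 0 without a filter, 0 with only the 2 groups, and 2 with the likelihood ratio test, DESeq2 and limma voom. The cause of these shifts was not tested.

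With each sample left out in turn, counts ranged from 1 to 5 in PC-3 at 12 h, 3 to 8 at 24 h and 0 to 5 between times, were 0 to 0 in LNCaP, and ranged from 5 to 7, 3 to 5 and 1 to 6 in CT1258. They ranged from 0 to 3 and 0 to 5 for PC-3 against LNCaP at 12 h and 24 h, 4 to 5 and 3 to 5 for PC-3 against CT1258, 6 to 7 and 3 to 6 for LNCaP against CT1258, and 0 to 2 for the untreated lines. With samples left out, the calls over all genes in CT1258 ranged from 3206 to 5567 at 12 h, 2116 to 4629 at 24 h and 20 to 1352 between times. In LNCaP they ranged from 0 to 261 at 12 h and 0 to 105 at 24 h. Thinning the deeper CT1258 controls left counts of 7, 5 and 4 of the listed genes.

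Same-numbered samples did not deviate together: the correlation was above 0.1 in 0 of 4 pairs in PC-3, 1 of 9 in LNCaP and 1 of 9 in CT1258. With the replicate number as a block, counts were 4 in PC-3 at 24 h, 0 in each LNCaP comparison, 7, 4 and 3 in CT1258, and 7 and 3 for LNCaP against CT1258. No paired analysis was possible for PC-3 at 12 h because its columns carry no clear replicate numbers.

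Over 2804 fits of single genes under the alternatives, 2594 kept their side of the threshold, 91 lost a call and 119 gained one. Among the 2594, the sign changed in 70 fits, none of them with a call in either fit. PC-3 had 2 controls, and the biological coefficient of variation was 0.240 in LNCaP against 0.0971 in PC-3.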
